A study of Mus musculus with 8 samples.

Results

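Sterol and fatty acid synthesis genes were followed in dorsal skin. The mice were Hos:HR-1 females of 10 weeks, which are hairless. The groups were 4 arrays from mice fed AIN-93G, a purified rodent diet, and 4 arrays from mice fed AIN-93G mixed with fish scale collagen hydrolysate (collagen broken into short peptides) at 2.0 g per 100 g of diet, each for 1 week. The labels name each array a biological replicate, from groups of 8 mice housed 4 per cage, and neither the mice nor the cages of the arrays are given, so p-values measure the spread between these arrays. Whole skin was powdered, so the arrays measure a mixture of cell types. The members were chosen by name from the pathway, 29 genes in all, and 28 of the 18193 genes with a probe set annotated to a single gene were members. The gene left out was Acat2. For each gene the probe set with the highest mean over the 8 arrays was used.

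Cells make cholesterol from acetyl-CoA through mevalonate, squalene and lanosterol, and they make long fatty acids from the same acetyl-CoA through malonyl-CoA. The transcription factors SREBP-1 and SREBP-2, encoded by Srebf1 and Srebf2, are held in the endoplasmic reticulum by SCAP and the INSIG proteins when sterols are plentiful, and are released to switch on these genes when sterols run short. SREBP-2 acts mainly on sterol genes and SREBP-1c mainly on fatty acid genes. In skin, epidermis, sebaceous glands and hair follicles make much of their own lipid, and cholesterol is, with ceramides and free fatty acids, a component of the water barrier of the stratum corneum.

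The sterol branch held 15 measured genes: Hmgcs1, Mvk, Pmvk, Mvd, Idi1 and Fdps, which carry acetyl-CoA units through mevalonate to farnesyl diphosphate, and Fdft1, Sqle, Lss, Cyp51, Msmo1, Nsdhl, Hsd17b7, Sc5d and Dhcr7, which build and trim the sterol. The fatty acid branch held 7 genes. Acly and Acss2 supply acetyl-CoA, Acaca makes malonyl-CoA, Fasn is the fatty acid synthase, Elovl6 and Scd2 lengthen and desaturate its products, and Me1 yields NADPH. The SREBP regulators were Srebf1, Srebf2, Scap, Insig1 and Insig2. Stard4, a carrier that moves cholesterol between membranes, was described apart.

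Promoters of 24 of the 29 listed genes were in the RefSeq table of build GRCm38.p6, each as 250 bases before and 50 bases after an annotated start. SREBP binds the sterol regulatory element, searched for here as TCACNCCAC on both strands, and NF-Y, a factor that works beside SREBP, binds the CCAAT box. The sterol regulatory element letters occurred in 1.44% of 27025 genes and in 1 of 13 sterol branch genes, 0 of 6 fatty acid genes and 0 of 5 regulators. That gene was Hmgcs1, which makes the precursor of mevalonate, with TCACCCCAC beginning at -137 from its start. The CCAAT letters, on either strand, occurred in 41.1% of all genes and in 12 of 13 sterol branch genes, all but Acat2, against 4 of 6 fatty acid genes (Acly, Acss2, Fasn and Me1) and 4 of 5 regulators. GGGCGG, the GC box bound by Sp1, occurred in 38.2% of all genes, in 12 of 13 sterol branch genes, 3 of 6 fatty acid genes and 5 of 5 regulators. CACGTG, the E-box, occurred in 8.09% of all genes, in 3 of 13 sterol branch genes (Dhcr7, Hsd17b7 and Sc5d), 0 of 6 fatty acid genes and 2 of 5 regulators (Insig1 and Scap). Some genes have more than 1 promoter in the table, a gene counts once if any of its promoters holds the letters, and CCAAT and the longer motifs may overlap. A match is a string of letters and not a measured binding site.

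The promoters of Hmgcs1, which holds the sterol regulatory element letters, of Insig1 and Cyp51, whose values over the arrays were the most alike, and of Fasn, which did not share their pattern, are printed 5′ to 3′ with capitals for CCAAT on either strand and for the sterol regulatory element letters of Hmgcs1. The last 3 were picked after their values were seen.
Hmgcs1 promoter, chr13:119690101-119690400, plus strand: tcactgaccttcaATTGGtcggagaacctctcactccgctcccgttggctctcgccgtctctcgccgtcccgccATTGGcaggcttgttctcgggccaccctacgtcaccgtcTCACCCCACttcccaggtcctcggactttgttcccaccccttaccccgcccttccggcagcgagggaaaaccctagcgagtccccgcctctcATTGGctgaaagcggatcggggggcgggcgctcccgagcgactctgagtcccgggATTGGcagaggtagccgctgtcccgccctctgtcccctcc
Insig1 promoter, chr5:28071162-28071461, plus strand: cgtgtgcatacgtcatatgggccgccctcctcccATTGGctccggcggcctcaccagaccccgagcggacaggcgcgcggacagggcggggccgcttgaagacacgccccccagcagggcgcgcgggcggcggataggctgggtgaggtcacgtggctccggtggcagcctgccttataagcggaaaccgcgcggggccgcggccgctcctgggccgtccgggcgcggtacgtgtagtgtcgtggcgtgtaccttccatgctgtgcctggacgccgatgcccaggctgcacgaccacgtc
Cyp51 promoter, chr5:4104648-4104947, minus strand: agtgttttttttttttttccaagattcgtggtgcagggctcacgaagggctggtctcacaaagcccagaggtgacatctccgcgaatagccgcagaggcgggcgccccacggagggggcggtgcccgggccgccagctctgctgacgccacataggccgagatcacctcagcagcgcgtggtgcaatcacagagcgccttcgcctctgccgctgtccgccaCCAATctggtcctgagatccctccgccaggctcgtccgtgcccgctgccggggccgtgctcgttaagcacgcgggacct
Fasn promoter, chr11:120824498-120824797, minus strand: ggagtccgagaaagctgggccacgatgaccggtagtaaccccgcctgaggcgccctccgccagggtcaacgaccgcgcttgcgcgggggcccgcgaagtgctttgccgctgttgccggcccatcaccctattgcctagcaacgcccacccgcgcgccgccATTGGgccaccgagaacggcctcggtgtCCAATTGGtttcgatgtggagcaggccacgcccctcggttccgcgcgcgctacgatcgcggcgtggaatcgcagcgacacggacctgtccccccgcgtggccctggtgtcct
Hmgcs1 holds the CCAAT letters at 4 places, Fasn holds them at 3 places, and Insig1 and Cyp51 hold them once each, at -216 and -29 from the start. The letters are thus present in all 4, in those with like and with unlike values over the arrays.

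The deposited values are on an assumed log2 scale and hardly differed between arrays. Array medians lay between 8.1929 and 8.1932. A gene's main probe set had a median range of 9.16 units over the 8 arrays, where a unit is 1e-06 of the deposited log2 scale. Members had a median range of 269.0 units, which 8.9% of all genes exceeded, from 1.48 units for Scap to 3000.0 units for Hsd17b7. The median range was 434 units in the sterol branch, 231 units in the fatty acid branch and 45.7 units among the regulators. How the values were summarised and scaled is not stated in the labels, and spread is unequal between probe sets, so differences are not fold changes. The ranges above describe the deposited values and rank no gene or branch as more variable. Apart from them, unit sizes are not compared between genes. Values below are deviations from a gene's own mean over the 8 arrays, in units, and differences are collagen minus control with limma's moderated SE.

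Mean levels on the deposited scale ran from 9.41 (Mvd) to 13.43 (Hmgcs1) in the sterol branch, from 10.47 (Acss2) to 12.92 (Elovl6) in the fatty acid branch and from 10.36 (Srebf2) to 11.91 (Insig2) among the regulators. The 3 ranges overlap, with medians of 11.17, 11.70 and 11.47. Every member's level exceeded the median over all probe sets, 8.19, and the median over the main probe sets of all genes, 8.87. Probe sets bind with different strength, so these levels rank no gene or branch above another. Of the skin markers, the epidermal keratins Krt14 and Krt10 lay at 14.19 and 14.39 and the collagen gene Col3a1 at 14.21. Of 5 liver markers measured, 4 lay below 8.19, Alb at 7.99 among them, and Cyp2e1 lay at 11.71.

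The comparison of diets asks whether collagen hydrolysate in the diet altered these genes in skin. By their main probe sets, the 15 measured sterol branch genes all had a higher mean with collagen, as did the 5 regulators. Of the fatty acid genes 4 of 7 were higher and 3 lower, where 52.9% of all 18193 genes were higher. No member passed the test on its own, which does not show that the diets were alike. At adjusted p under 0.05 by limma over 45037 probe sets, 0 members and 0 of all probe sets (0.0%) passed, and each member had an adjusted p of 1.0. At unadjusted p under 0.05, 0 of 28 members passed, against 2.35% of all genes in the higher direction and 1.27% in the lower, and 1601 of all probe sets did. By limma, unadjusted p among the members was smallest for Insig1 (0.0877) and Fdft1 (0.0903). In whole skin, fewer cells of a type and less RNA per cell cannot be told apart.

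The median difference was 1.03 within-diet SD in the sterol branch, 0.58 among the regulators and 0.41 in the fatty acid branch, against 0.05 for all genes. The liver markers, most of them dim here, were also higher with collagen in 5 of 5, with a median of 0.52 SD. A small list can thus lie wholly higher without belonging to these paths. The members of each branch ran from 0.08 (Dhcr7) to 1.35 (Fdft1), from 0.36 (Srebf1) to 1.36 (Insig1) and from -0.59 (Acaca) to 1.15 (Acly). These are counts and medians with no test, because the genes were picked with earlier results known and because the sterol genes moved together between arrays, so that their 15 directions are not 15 separate observations. After quantile normalization 10 of 15 sterol genes, 2 of 5 regulators and 3 of 7 fatty acid genes were higher. Of all genes 65.8% were higher under that scaling. Mvk and Mvd then lay lower, Hmgcs1, Nsdhl, Sqle, Insig2, Srebf1, Scap, Acly, Elovl6 and Me1 had equal values in all arrays, and Acaca and Fasn turned higher. After median centring 15 of 15, 5 of 5 and 6 of 7 were higher, when 94.6% of all genes were.

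**Figure D1:**
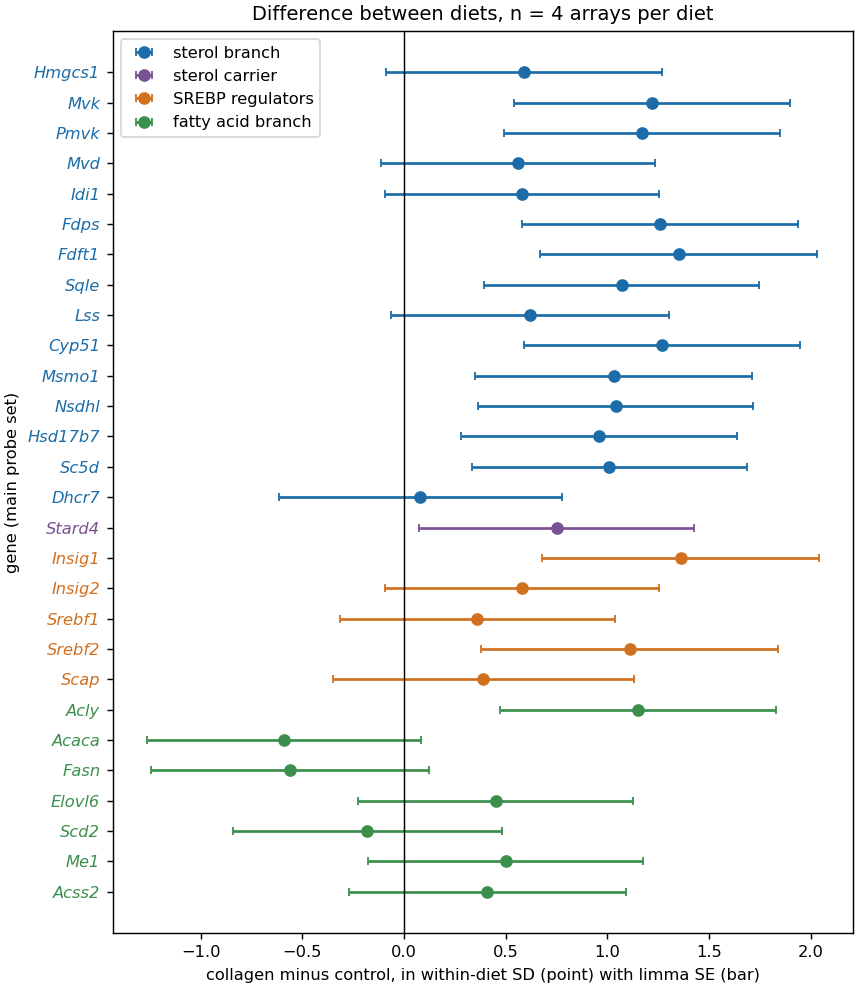
Difference between diets for each of the 28 members, as collagen minus control divided by the within-diet SD (x axis, points), with limma's SE on the same scale (bars, n = 4 arrays per diet), coloured by branch. All 15 sterol genes lie to the right of 0, Acaca, Fasn and Scd2 lie to the left, and the largest point is 1.36 for Insig1.

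Among the enzymes of the mevalonate part, Hmgcs1 lay at 2.5, -10.9, -5.5 and 1.4 units in control 1 to 4 and at 14.7, 14.2, -4.1 and -12.4 units in collagen 1 to 4. Collagen 1 and 2 were the highest arrays and collagen 4 the lowest, and the difference was 6.22 ± 7.17 units (SE, n = 4 per diet). Mvk, which phosphorylates mevalonate, lay at -6.4, -4.6, -6.4 and -7.3 units in control 1 to 4 and at -4.3, 27.2, 1.4 and 0.5 units in collagen 1 to 4. Its 4 collagen arrays all lay above its control arrays, with collagen 2 far above the other 3, and the difference was 12.3 ± 6.85 units (SE, n = 4 per diet). Without collagen 2 it was 5.35 units, with an unadjusted p of 0.0162 and an adjusted p of 1.0 by limma. Mvk was the 1 member of 28 whose diets did not overlap, where 1.35% of all genes lay wholly higher with collagen, and nothing is read from a count of 1.

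Pmvk, which adds the second phosphate, lay at -66.9, -336.1, -58.5 and 24.8 units in control 1 to 4 and at 63.9, 341.9, 188.4 and -157.5 units in collagen 1 to 4. Control 2 was lowest and collagen 2 highest, with collagen 4 below 3 of the control arrays, and the difference was 218 ± 126 units (SE, n = 4 per diet). Fdps, which makes farnesyl diphosphate, lay at -79.5, -149.1, -42.0 and -38.3 units in control 1 to 4 and at -74.5, 284.7, 132.8 and -34.1 units in collagen 1 to 4. Collagen 2, 3 and 4 lay above all control arrays, collagen 4 only just, while collagen 1 lay among the controls, and the difference was 154 ± 82.9 units (SE, n = 4 per diet). Idi1, which isomerises the isoprene unit, and Mvd, which makes it, differed by 334 ± 388 and 132 ± 159 units (SE), and by 59.9 and 4.11 units without collagen 2.

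Past farnesyl diphosphate, Fdft1, which makes squalene, lay at 100.8, -209.8, -94.0 and -93.9 units in control 1 to 4 and at 99.5, 157.8, 88.1 and -48.6 units in collagen 1 to 4. All 4 collagen arrays lay above controls 2, 3 and 4, but only collagen 2 lay above control 1, and the difference was 148 ± 74.7 units (SE, n = 4 per diet). Sqle, which oxidises squalene and is a control point of the path, lay at -12.0, -36.5, -16.9 and -20.3 units in control 1 to 4 and at 32.0, 85.6, 17.6 and -49.3 units in collagen 1 to 4. Control arrays spanned a narrow band (SD 10.6 units) inside a wider collagen spread (SD 55.5 units), since collagen 4 was the lowest array of all, and the difference was 42.9 ± 27.1 units (SE, n = 4 per diet). Cyp51, the lanosterol demethylase, lay at -64.7, -792.8, -219.0 and 36.3 units in control 1 to 4 and at 405.0, 634.0, 385.8 and -384.8 units in collagen 1 to 4. Collagen 1, 2 and 3 lay above all controls and collagen 4 below 3 of them, and the difference was 520 ± 278 units (SE, n = 4 per diet).

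The other sterol enzymes differed by 227 ± 250 units (Lss, which closes the ring), 35.3 ± 23.3 (Msmo1, a methyl oxidase), 44.2 ± 28.8 (Nsdhl, which removes the methyl groups with it), 856 ± 605 (Hsd17b7, a keto reductase), 74.7 ± 50.0 (Sc5d, a desaturase) and 10.6 ± 92.2 (Dhcr7, the last step), each with its SE. Lss differed by 52.7 units without collagen 2, and Hsd17b7 by 428 units without control 2. Dhcr7 was the sterol gene whose sign depended on single arrays: without collagen 2 its difference was -59.3 units, without control 2 -10.8 and without collagen 1 -7.00. Leaving out 1 array moved the difference by over 1.5 times in 26 of the 28 members, all but Fdft1 and Insig1. Over the branch, collagen 2 held the highest value in 13 of 15 genes, control 2 the lowest in 8 and collagen 4 the lowest in 4. In collagen 4 the value lay above the control mean in 5 of 15 genes, against 12, 15 and 13 genes in collagen 1, 2 and 3.

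**Figure D2:**
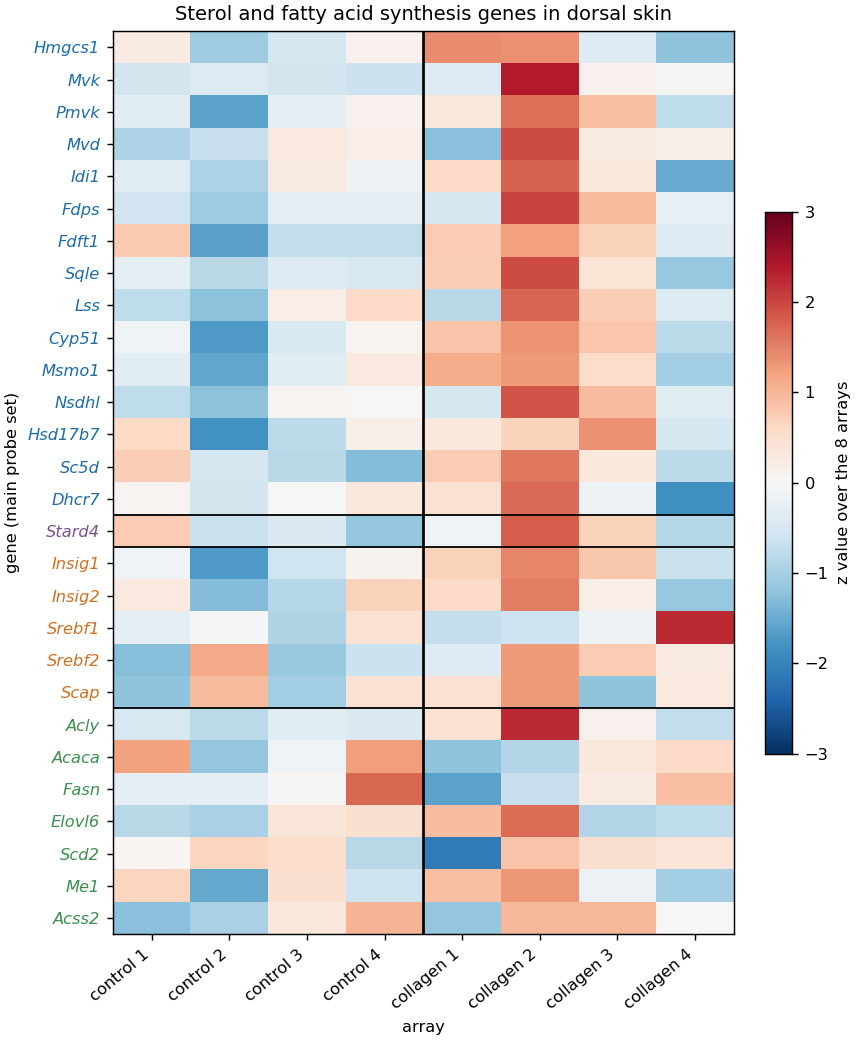
Value of each member (rows, italic, coloured by branch) in each array (columns, control left of the line), as a z value over the 8 arrays from blue (low) to red (high). Collagen 2 is the reddest column, holding the highest value in 13 of 15 sterol genes, and control 2 and collagen 4 are mostly blue there, while Acaca, Fasn and Scd2 follow other arrays.

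Of the regulators, Insig1, an SREBP target that retains SCAP in the endoplasmic reticulum, lay at -21.5, -334.5, -120.2 and 19.5 units in control 1 to 4 and at 138.6, 290.7, 157.7 and -130.3 units in collagen 1 to 4. Collagen 1, 2 and 3 lay above all control arrays and collagen 4 below 3 of them, and the difference was 228 ± 114 units (SE, n = 4 per diet). Without collagen 4 it was 310 units, with an unadjusted p of 0.0209 and an adjusted p of 0.613 by limma. Insig2, a second retention protein, lay at 5.5, -24.5, -16.1 and 12.8 units in control 1 to 4 and at 10.6, 28.9, 3.9 and -21.1 units in collagen 1 to 4. Its arrays interleaved, with a difference of 11.2 ± 13 units (SE, n = 4 per diet).

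Srebf1, the source of SREBP-1a and SREBP-1c, lay at -3.8, -0.8, -13.1 and 6.6 units in control 1 to 4 and at -10.3, -9.1, -2.1 and 32.6 units in collagen 1 to 4. Only collagen 4 lay above the control range, the difference was 5.53 ± 10.4 units (SE, n = 4 per diet), and without collagen 4 it was -4.40 units. Srebf2 lay at -1.0, 0.9, -0.9 and -0.5 units in control 1 to 4 and at -0.3, 1.0, 0.6 and 0.2 units in collagen 1 to 4. It differed by 0.803 ± 0.528 units (SE, n = 4 per diet) over a range of 2.05 units in all. Scap, the sterol sensor that escorts SREBP, lay at -0.7, 0.6, -0.6 and 0.3 units in control 1 to 4 and at 0.3, 0.8, -0.7 and 0.2 units in collagen 1 to 4. The diets covered nearly the same range, with a difference of 0.243 ± 0.46 units (SE, n = 4 per diet). Stard4 differed by 101 ± 91.2 units (SE, n = 4 per diet), with collagen 2 highest and control 4 lowest.

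In the fatty acid branch, Acly, which cleaves citrate to acetyl-CoA, lay at -2.6, -4.4, -1.9 and -2.3 units in control 1 to 4 and at 2.4, 12.2, 0.7 and -4.0 units in collagen 1 to 4. Collagen 2 stood above the other arrays and the control arrays stayed within an SD of 1.09 units, and the difference was 5.62 ± 3.32 units (SE, n = 4 per diet). Acaca, the acetyl-CoA carboxylase that commits carbon to fatty acids, lay at 15.1, -14.5, -1.2 and 15.8 units in control 1 to 4 and at -15.3, -11.1, 4.1 and 7.1 units in collagen 1 to 4. Controls 1 and 4 were the 2 highest arrays and collagen 1 the lowest, with a difference of -7.64 ± 8.75 units (SE, n = 4 per diet). Fasn lay at -27.7, -27.3, 2.2 and 159.1 units in control 1 to 4 and at -148.0, -63.9, 21.8 and 83.7 units in collagen 1 to 4. Control 4 was highest, collagen 1 lowest and collagen 4 second highest, and the difference was -53.1 ± 64.8 units (SE, n = 4 per diet). It was -8.98 units without control 4 and -12.7 units without collagen 1.

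Me1, the NADPH-making malic enzyme, lay at 9.9, -23.8, 7.4 and -9.6 units in control 1 to 4 and at 14.1, 20.4, -2.6 and -15.7 units in collagen 1 to 4. Collagen 2 and 1 were highest and control 2 lowest, and the difference was 8.08 ± 10.9 units (SE, n = 4 per diet). Elovl6 and Acss2 differed by 41.4 ± 62.4 and 79.3 ± 132 units (SE). Scd2, a skin and brain desaturase, differed by -86.3 ± 317 units (SE), with collagen 1 at -921.1 units and the other 3 collagen arrays from 166.1 to 368.9, and without collagen 1 the difference was 206 units.

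The sterol genes varied together over the 8 arrays, and the fatty acid genes mostly did not. Within the sterol branch the median Pearson r over 105 gene pairs was 0.72, with 0 pairs below 0 and 83.8% above 0.5. Over all pairs of 18188 genes the median was 0.01, with 13.7% above 0.5, and for sterol genes with all other genes these values were -0.03 and 14.9%. Within the fatty acid branch the median over 21 pairs was 0.06, with 8 pairs below 0 and 23.8% above 0.5. Pairs share the same 8 arrays, the same RNA and the same normalization, and no p is given for them.

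The sterol median r varied with the arrays and the scaling used. It was 0.67 after each diet's mean was subtracted, 0.51 without collagen 2 and between 0.66 and 0.80 without each other array. The first part of the path (Hmgcs1 to Fdps) and the second (Fdft1 to Dhcr7) had a median of 0.72 and 0.69 within themselves and 0.72 with each other. After quantile normalization, which made 3 of the 15 genes constant, the sterol median was 0.44. The fatty acid median was less settled, with 0.50 after median centring, -0.24 after quantile normalization and -0.19 without Acly and Acss2. The sterol median lay above it under each of these scalings. Quantile normalization made 3 of the 7 fatty acid genes constant, Acly, Elovl6 and Me1. Median centring moved every gene of an array by the same amount. It shifted the diet difference of all genes by a median of 55.2 units. As deposited, Acly, Acaca and Me1 ranged over 16.6, 31.1 and 44.1 units, so their centred values hold a shared shift. How much of the centred fatty acid median came from that shift was not tested.

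**Figure D3:**
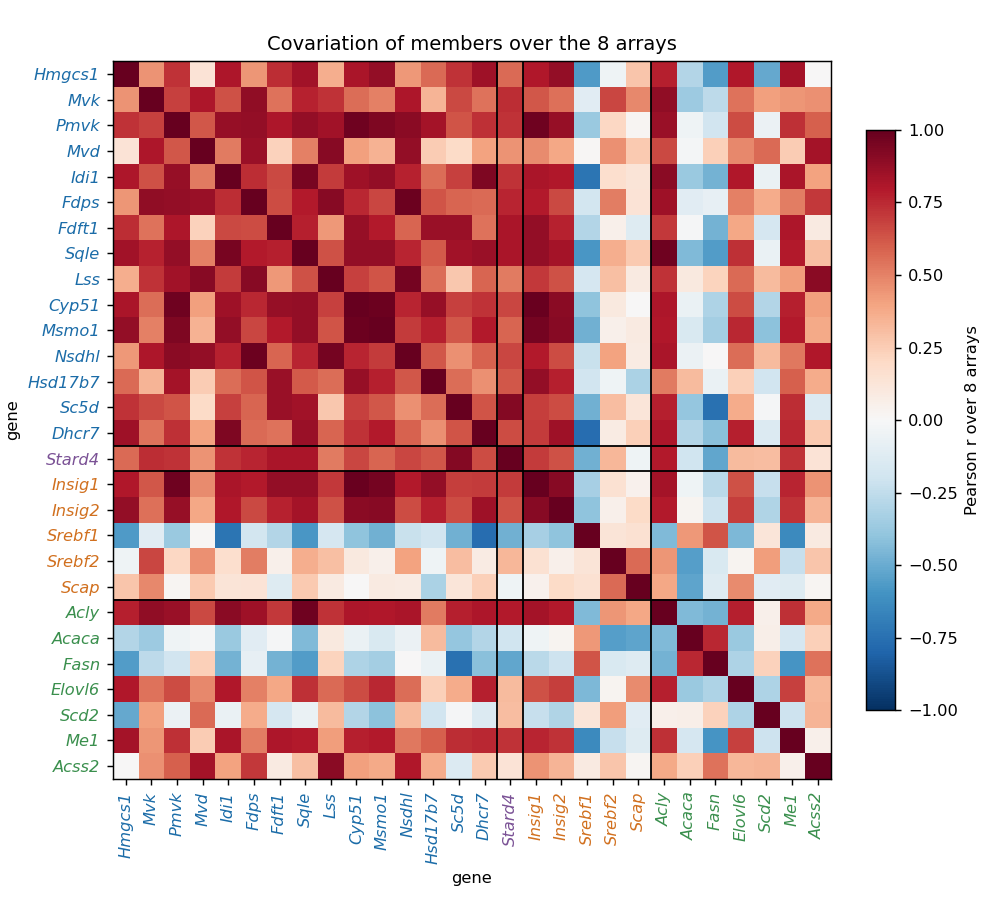
Pearson correlation over the 8 arrays between every pair of the 28 members (both axes), from blue (-1) to red (1), with lines between the sterol branch, Stard4, the regulators and the fatty acid branch. The sterol block, with Stard4, Insig1, Insig2, Acly and Me1, is red, while Srebf1, Acaca and Fasn are pale or blue against it (median r with the sterol genes -0.37, -0.11 and -0.31).

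The fatty acid genes fell on both sides of this pattern. Acly and Me1 had a median r of 0.81 and 0.74 with the 15 sterol genes, Elovl6 0.57 and Acss2 0.40, whereas Acaca, Scd2 and Fasn had -0.11, -0.07 and -0.31. Acly was most like Sqle (r = 0.97), and Fasn most like Acaca (r = 0.75). These values hold for the main probe sets. The next brightest Acly probe sets, at levels of 12.23 and 10.27, each had r of 0.60 with the main one. The other Me1 probe set had r of 0.58 with its main one. Between the sterol and fatty acid branches as wholes the median was 0.38 over 105 pairs.

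The regulators fell on both sides too. Insig1, Insig2 and Stard4 had a median r of 0.80, 0.78 and 0.67 with the sterol genes, while Srebf2 had 0.21, Scap 0.12 and Srebf1 -0.37. Srebf2 and Scap varied over only 2.05 and 1.48 units. Their other probe sets had r of 0.30 and 0.02 with the main ones, so little can be read from their low values. Srebf1 transcript had its highest r among members with Fasn (r = 0.63, Spearman's rho = 0.69), and r was 0.94 without collagen 4 and control 3, the 2 arrays farthest from the Srebf1 median. Messenger level is no measure of SREBP cleavage, which these arrays do not record.

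Insig1 was set against all 18187 other genes whose values differ between arrays, a search made after its values were seen. Cyp51 ranked 1 of them (r = 0.99, rho = 0.98, and r = 0.99 without collagen 2 and control 2, the arrays farthest from the Insig1 median). Pmvk ranked 3 (r = 0.97) and Msmo1 9 (r = 0.96), and 4 of the 27 other members, with Insig2 at rank 63, were among the 74 genes (0.407% of all) with r above 0.9. Without those 2 arrays r went from 0.79 to 0.36 for Nsdhl, from 0.71 to 0.15 for Lss and from 0.47 to -0.36 for Mvd. For Sqle it went from 0.88 to 0.89, for Acly from 0.83 to 0.86 and for Hsd17b7 from 0.88 to 0.84. Fasn had r of -0.27 with Insig1.

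**Figure D4:**
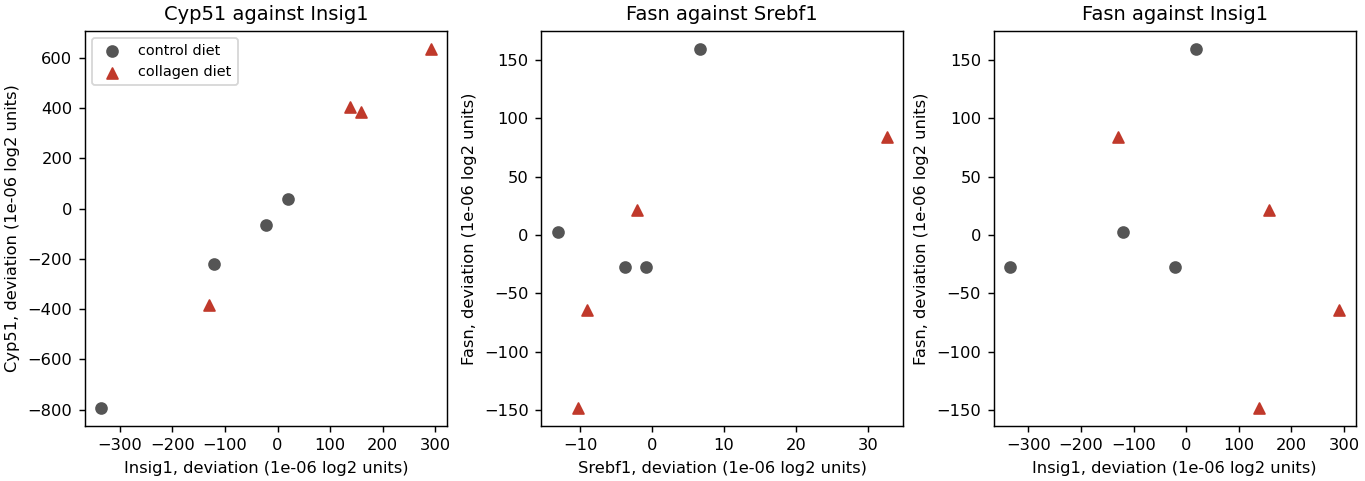
Deviation from the gene's own mean, in units of 1e-06 of the deposited log2 scale, in the 4 control arrays (circles) and 4 collagen arrays (triangles) for Cyp51 against Insig1, Fasn against Srebf1 and Fasn against Insig1. Cyp51 lies along a line with Insig1 in both diets (r = 0.99), Fasn less closely with Srebf1 (r = 0.63) and not with Insig1 (r = -0.27).

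Expressed as the mean z value of its genes, the sterol score was -0.17, -1.12, -0.29 and -0.11 in control 1 to 4 and 0.25, 1.64, 0.53 and -0.72 in collagen 1 to 4. Collagen 4 lay below 3 control arrays, and the difference of 0.85 compares with a within-diet SD of 0.76. The regulator score was -0.49, -0.21, -0.92 and 0.20 in the controls and 0.14, 1.00, 0.09 and 0.20 with collagen, a difference of 0.71 at an SD of 0.45. The fatty acid score was -0.14, -0.72, 0.18 and 0.37 in the controls and -0.54, 0.79, 0.16 and -0.09 with collagen, a difference of 0.15 at an SD of 0.52. The sterol score stood above the fatty acid score in 3 of 4 collagen arrays, by 0.79, 0.85 and 0.37, and below it in collagen 4 (-0.63) and in the 4 controls (-0.03 to -0.48). The sterol and fatty acid differences were 0.50 and 0.43 after quantile normalization and 0.86 and 0.41 after median centring, so the contrast between the scores nearly closed under the first. Quantile normalization made 3 of 15 sterol genes and 3 of 7 fatty acid genes constant, so those scores do not rest on the same genes as the deposited ones. Whether the branches responded differently to diet was not tested.

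Markers of several skin cell types varied between the same arrays. Epidermal markers (6 of 7 measured, 5 higher with collagen) scored 1.62 in collagen 2, the array highest for sterol genes, and -0.82 to 0.27 in the other 7. Fibroblast markers (7 of 7 measured, 7 lower) scored -1.52 in collagen 2, -0.86 in collagen 1, and 0.68 in collagen 4, the collagen array lowest for sterol genes. Sebaceous gland markers (10 of 13 measured, 9 higher) ran from -1.03 to 0.16 in controls and from -0.56 to 0.60 with collagen, lowest in control 2 and collagen 4 as the sterol genes were. White adipocyte markers (7 of 10 measured, 2 higher) scored -0.47, -0.30, 0.72 and 0.55 in control 1 to 4 and -0.66, -1.14, 0.09 and 1.20 in collagen 1 to 4. Fasn was likewise low in collagen 1 and 2 and high in control 4 and collagen 4. In control 3, where the adipocyte score was 0.72, Fasn lay near its mean at 2.2 units. Muscle markers (10 of 10 measured, 1 higher) ran from -0.47 to 1.08 and from -1.49 to 0.24, macrophage markers (6 of 6, 1 higher) from -0.42 to 0.93 and from -1.42 to 1.21. Mc5r and Plin5 of the sebaceous list lay at 8.09 and 8.21, near the median of 8.19, and every other measured marker of these lists at 9.08 or higher. The 3' minus 5' gap of the Gapdh control probe sets, a sign of RNA integrity, ran from 0.2898 to 0.2904 in controls and from 0.2900 to 0.2906 with collagen. It was highest in control 1 and collagen 1 and lay from 0.2898 to 0.2901 in the other arrays. These gaps are deposited log2 values, of which a unit is 1e-06, so in units they were not even between arrays. The part of cell makeup and RNA integrity in the member values was not tested.

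**Figure D5:**
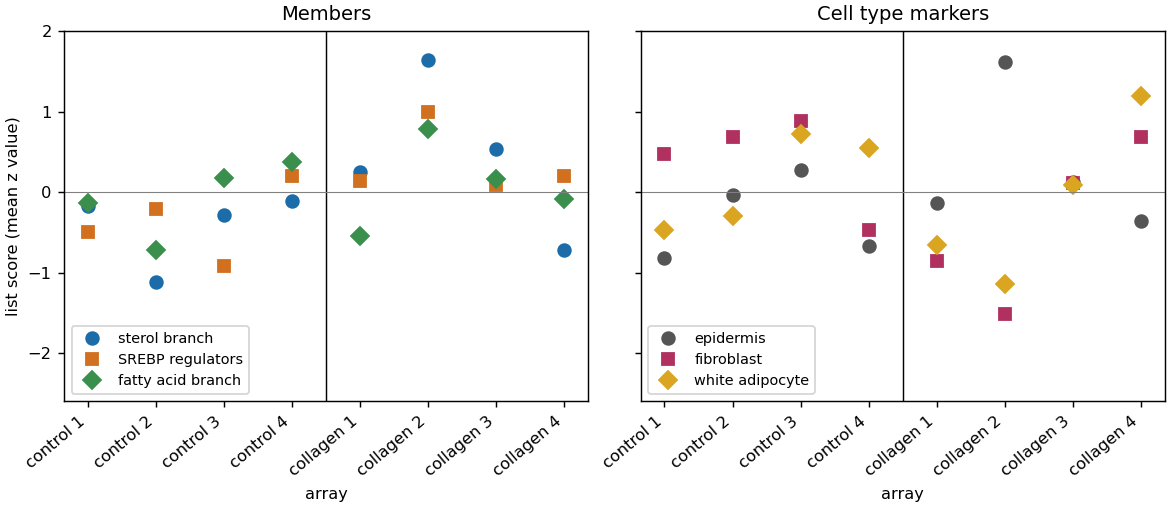
Mean z value of each list (y axis) in each array (x axis, control left of the line) for the 3 member groups (left panel) and 3 cell type marker lists (right panel). Sterol genes and epidermal markers both peak in collagen 2 (1.64 and 1.62), where fibroblast and adipocyte markers are lowest (-1.52 and -1.14).

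Other probe sets gave a further look at the same genes. Of the 28 members 21 had more than 1 single-gene probe set, 40 others in all, and 37 of these were higher with collagen, including 21 of 21 in the sterol branch. They measure the same RNA samples and are no separate evidence. Of the 40, 28 lay at or above the median level, with a median r of 0.74 with the main probe set, and the rest had a median of 0.42. One of them had an unadjusted p under 0.05, the dimmest Cyp51 probe set at a level of 8.53, with 116 ± 44.2 units (SE) and an adjusted p of 1.0 by limma. The 2 brighter Cyp51 probe sets correlated at r = 0.97.

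Genes of the surrounding paths lay on both sides of 0. Of 15 other sterol genes measured out of 18 listed, 10 were higher and 5 lower, with a median difference of 0.16 SD, and of 22 other fatty acid genes out of 24, 16 were higher and 6 lower, with a median of 0.35 SD. In both lists 0 genes passed limma's adjusted or unadjusted threshold, and the lists were not tested against the members. The smallest p belonged to Lbr, a sterol reductase of the nuclear membrane (5.18 ± 2.50 units), Dhdds, of dolichol synthesis (2.01 ± 1.03), Tm7sf2, another sterol reductase (180 ± 139), and Npc2, a lysosomal sterol carrier (-12.9 ± 14.1). On the fatty acid side they belonged to Mlxipl, the carbohydrate-responsive factor ChREBP (-58.9 ± 30.8 units), Lpin1, a phosphatidate phosphatase (-83.1 ± 56.8), Pgd, an NADPH source (1.73 ± 1.19), and Elovl3, a sebaceous elongase (703 ± 558), each with its SE and n = 4 per diet.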

How the data were processed

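Per the labels' protocols, total RNA of powdered skin was biotin-labelled for expression arrays. The authors deposited 45101 values per array, taken as log2 from their range (6.56 to 14.46). Their normalization and any genome build were not given in the sources used here. R 2.7.2 is named in the submitters' processing notes. Scanner values were not used here, which leaves the signal over background unknown. The number of arrays limits the precision.

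The 64 control probe sets were left out. All 45037 others were fitted in R 4.3.3 by limma 3.58.1 (collagen minus control, two-sided eBayes test, Benjamini-Hochberg adjustment, threshold 0.05), with 0.514 prior degrees of freedom. Values were multiplied by 1e+06 in the fit and divided again. The platform annotation gave 1 gene symbol for 34945 probe sets, several for 932 and none for 9160. Scores are mean z values. Promoters came from RefSeq. Figures were drawn with matplotlib 3.10.9. Members and lists were chosen with earlier results of these data known. Named genes were all members, with array values for the 6 sterol and 4 fatty acid genes of smallest p, the regulators and Hmgcs1, Sqle, Fasn and Acaca, and the 4 smallest p of each other list.

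The fit was tested on simulated data. No pair of arrays was identical: of 28 pairs, each shared 30 to 53 equal probe sets. Alternatives were each array left out, 2 scalings, a replicate-number block, array weights, a variance trend, a filter on dim probe sets, and other probe set rules.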

Additional observations from a re-analysis of the deposited data

Results flagged for a closer look

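An array standing apart from the other 3 of its diet was looked for with Dixon's ratio (the gap to the nearest array divided by the range of the 4) against its critical value, in 62 groups of 4 arrays, of which chance flags about 1 in 20. Control 4 stood above the other control arrays for Fasn (ratio 0.840), at 159.1 units against 2.2 and below. Collagen 1 stood below the other collagen arrays for Scd2 (ratio 0.843), at -921.1 units against 166.1 and above. Collagen 2 stood above the others in the score of the SREBP regulators (ratio 0.872), at 1.00 against 0.20 and below.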

How the results depend on the processing

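Of 420 member results under 15 alternatives, 396 kept their direction, 14 took the opposite one and the other 10 had equal means after quantile normalization, and 0 passed limma's adjusted threshold. Beside those in the report, opposite signs were -9.51 units for Mvk, -4.31 for Mvd, 152 for Acaca and 14.2 for Fasn after quantile normalization, 47.5 for Acaca and 2.03 for Fasn after median centring, and -0.0558 for Scap and 13.2 for Scd2 with array weights. The smallest unadjusted p of any member, 0.0877 as deposited, was 0.0106 without collagen 4 (Sqle, 66.5 units, adjusted p 0.581 by limma), 0.0137 without control 1, 0.0162 without collagen 2, 0.0259 without control 2, 0.0439 without collagen 1, 0.0177 with array weights and 0.0281 after median centring. With 1 array left out, Dhcr7 ran from -59.3 to 90.0 units, Elovl6 from -0.526 to 74.2, Srebf1 from -4.40 to 9.87 and Scd2 from -224.0 to 206.

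Probe sets past adjusted p 0.05 numbered 2 after quantile normalization and 0 without each array. Those at unadjusted p under 0.05 (1601 as deposited) numbered 176 after median centring, 821 at or above the median level, 635 with 1 main probe set per gene, 3316 with array weights, 1111 to 3416 without each array (2967 without control 1, 3416 without collagen 4), and 2801 with the replicate number as a block. The arrays share only a number: deviations of same-numbered arrays correlated at 0.3695, 0.06401, 0.2046 and 0.04014, not every array correlated best with its own number, and the block changed no member's direction or call. The score difference without each array was 0.60 to 1.23 (sterol), 0.52 to 0.85 (regulators) and -0.06 to 0.40 (fatty acid). After quantile normalization it was 0.50, 0.76 and 0.43, after median centring 0.86, 0.67 and 0.41, and as the mean of all probe sets 0.87, 0.46 and 0.14. Quantile normalization left 12 sterol genes, 2 regulators and 4 fatty acid genes with values that differed between arrays. The fatty acid score difference without Acly and Acss2 was -0.08. Without each array the sterol branch had 14 to 15 genes higher, the regulators 4 to 5 and the fatty acid branch 3 to 5. After quantile normalization they had 10, 2 and 3, after median centring 15, 5 and 6, and without Acly and Acss2 the fatty acid branch had 2 of 5. Quantile normalization left 65.8% of all genes higher and median centring 94.6%.

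The median correlation of the sterol branch was 0.44 after quantile normalization, 0.60 by Spearman's rank and 0.51 to 0.80 without each array. The fatty acid value was -0.24 after quantile normalization, 0.50 after median centring, 0.20 as the mean of all probe sets, 0.13 from residuals, -0.05 by Spearman's rank, -0.19 without Acly and Acss2 and 0.02 to 0.20 without each array. Between the branches it was 0.21, 0.52, 0.29 by Spearman's rank, 0.22 without Acly and Acss2, and 0.21 to 0.50. Quantile normalization made 12.2% of genes constant; the cause of the other moves was not tested.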
